A study of Mus musculus with 10 samples.

Results

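Mitochondrial ribosomal proteins are the protein parts of the ribosome inside mitochondria. They were taken here as every row of the deposited count table whose symbol starts with Mrpl or Mrps followed by a number. The rule found 76 of 15624 listed genes, 47 named Mrpl for the large subunit and 29 named Mrps for the small subunit, and all 76 passed the filter on low counts, which kept 13006 genes. The RNA came from the epithelium of established pancreatic ductal adenocarcinoma of KPFSR mice, cut from frozen sections by laser capture microdissection. Of the 10 libraries, 4 were labelled corn oil, the vehicle, and 6 were labelled tamoxifen. From knowledge of the model rather than from the labels, KPFSR tumours arise through a Flp recombinase active in the pancreas and carry floxed Slc7a11 and a tamoxifen-activated Cre recombinase expressed throughout the body. Both groups therefore share these alleles, and the groups differ in tamoxifen itself and in the deletion of Slc7a11 that it triggers, which cannot be told apart. The labels give no age, dose, time of collection or animal for a sample. The p-values therefore speak only of the spread among these libraries, and they would be too small where libraries of 1 group came from the same animal. The epithelium was collected after treatment of the whole animal, and in captured tissue fewer cells of a type and less RNA per cell cannot be told apart.

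Mitochondria translate a handful of respiratory chain subunits from their own genome on a dedicated ribosome, the mitoribosome. Its ribosomal RNAs are made inside mitochondria, whereas all of its proteins are encoded in the nucleus, made in the cytosol and imported. The small subunit reads the messenger RNA, and the large subunit joins the amino acids and feeds the new chain to the inner membrane. Many of the proteins descend from bacterial ribosomal proteins, while others are found only in mitochondria. Work in mice and cultured cells has tied defects in single members to loss of respiratory chain complexes. The ribosomal RNAs and messages that the mitochondrial genome itself encodes were not analysed here.

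Library totals ran from 16473900 to 36132300 counts with corn oil and from 6899350 to 19462100 with tamoxifen, and the shallowest library, tamoxifen 6, also had the fewest genes with a count (11643). Tamoxifen 1, 2 and 3 were more alike than any other pair, with Pearson r of log2 CPM (counts scaled to library size) of 0.921 to 0.963 over the tested genes against at most 0.878 in the other pairs, so counts below are also given without them. Slc7a11, the cystine transporter subunit that the model deletes, stood at 38.9, 26.1, 40.1 and 23.2 normalised CPM with corn oil and at 5.90 to 19.3 with a median of 10.6 with tamoxifen, so the groups did not overlap, but the log2 fold change of -1.41 (standard error 0.44, adjusted p = 0.311 by edgeR) did not pass. All 8 epithelial and ductal markers were present, with a summed level of 14203 to 30466 normalised CPM with corn oil and 14005 to 25048 with tamoxifen. Of these 8, 7 had a log2 fold change below 0 (median -0.37), and 4 without tamoxifen 1 to 3 (median 0.082). Of 7 tested macrophage markers 6 were below 0 (median -0.42), and 1 without tamoxifen 1 to 3 (median 0.24). Summed fibroblast markers (8 of 8 in the table) ran from 121 to 416 and from 124 to 988, macrophage markers (7 of 8, Adgre1 not in the table) from 891 to 1334 and from 810 to 2047, and acinar markers (5 of 7) from 17.2 to 204 and from 33.1 to 86.9. Endothelial markers (4 of 4) reached at most 14.7 and lymphocyte markers (4 of 5) at most 2.01 in any library, and no marker in the table lacked a count in all libraries. Their part in the results on mitochondrial ribosomal proteins was not tested.

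None of the 76 genes passed an FDR of 0.05 for tamoxifen against corn oil in edgeR's quasi-likelihood test, in which 0.0384% of all tested genes passed. Missing this threshold does not show that a gene was unchanged. Most of their log2 fold changes (tamoxifen over corn oil) were nonetheless below 0. This held for 65 of 76 members (85.5%), against 50.7% of all tested genes, and the members' median was -0.31 against -0.010 for all tested genes. Single members ran from -0.89 for Mrps12 to 0.73 for Mrps30. At an unadjusted p under 0.05, 9 members (11.8%) were lower and 1 (1.32%) was higher with tamoxifen, where the whole table gave 5.27% and 4.43%. The libraries of the 2 groups did not overlap for 6 members, all lower with tamoxifen (7.89%, against 1.95% of all tested genes), and for none in the other direction (1.28% of all tested genes). DESeq2 also called no member past the FDR, in a fit that called 243 of the 13006 tested genes, and its smallest adjusted p among the members was 0.0561 for Mrps12. At an unadjusted p under 0.05 it had 9 members lower and 2 higher, where 5.78% of all tested genes were lower. Limma voom with sample quality weights called 9 members, 8 of them lower, against 6.94% of all tested genes (Mrps14, Mrpl41, Mrps28, Mrps21, Mrpl33, Mrps12, Mrpl46 and Mrps11) and Mrps30 higher, in a fit that called 9.62% of all tested genes.

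Averaged over the members, the level was lower in most tamoxifen libraries. The mean log2 CPM of the 76 members was 6.39, 6.39, 6.53 and 6.57 in the corn oil libraries and 6.53, 6.18, 6.13, 5.93, 6.20 and 5.84 in the tamoxifen libraries. The group means were 6.47 ± 0.094 (SD, n = 4) and 6.13 ± 0.24 (SD, n = 6). Tamoxifen 1 lay within the corn oil range, and the other 5 tamoxifen libraries lay below it. The mean over all tested genes was 4.02 to 4.27 in the corn oil libraries. It was 3.86 in tamoxifen 4, 3.35 in tamoxifen 6 and 4.02 to 4.33 in the other tamoxifen libraries. Tamoxifen 4 and 6 thus had the lowest means for the whole table as well, and the fewest genes with a count (12658 and 11643). Median deviations from each gene's mean were -0.12 and 0.097 in tamoxifen 4 for the shortest and longest of 5 length classes, described below. In tamoxifen 6 they were 0.0023 and -0.044. Those of the members were -0.30 in tamoxifen 4 and -0.10 in tamoxifen 6. As a share of all counts, the members took 0.767% ± 0.0473 (SD, n = 4) in the corn oil group against 0.677% ± 0.110 (SD, n = 6) in the tamoxifen group. Of the 76 members, 64 had their lowest level in a tamoxifen library, 41 of them in tamoxifen 4 or 6, and 48 had their highest level in a corn oil library. With tamoxifen 1 to 3 left out, 65 members were still below 0 with a median of -0.37, and 4 were lower at an unadjusted p under 0.05 (2.23% of all tested genes in that fit). Of all tested genes in that fit, 53.6% were below 0, with a median of -0.058. With tamoxifen 4 and 6 left out, 57 members were below 0 with a median of -0.21, and 14 were lower at an unadjusted p under 0.05 (10.1% of all tested genes in that fit). There, 52.7% of all tested genes were below 0, with a median of -0.046. The tamoxifen libraries of that fit were tamoxifen 5 and the near-alike tamoxifen 1 to 3.

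**Figure D1:**
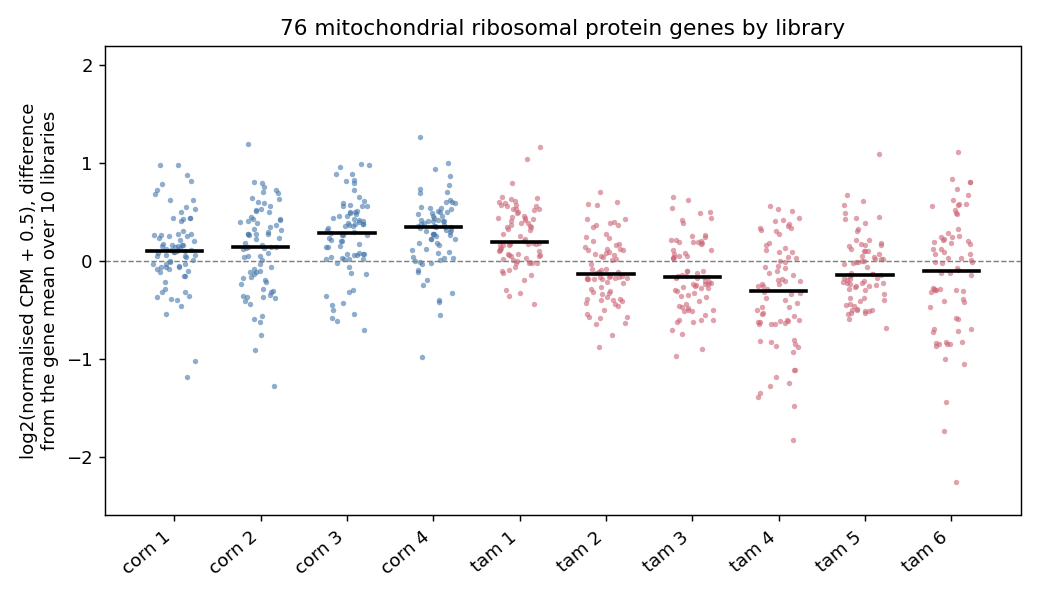
Level of each of the 76 members in each library, as log2(normalised CPM + 0.5) minus the gene's mean over the 10 libraries (vertical axis), with libraries on the horizontal axis, corn oil in blue, tamoxifen in red and black bars at the medians. 5 of the 760 points, all of tamoxifen 6, lie outside the axis. The corn oil medians lie above 0, as does that of tamoxifen 1, and the other tamoxifen medians lie below 0.

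By role, the small-subunit proteins with a bacterial counterpart had a median of -0.43, with 15 of 16 below 0 (median -0.18 with the trend with transcript length, described below, taken out). The mitochondria-specific proteins of the small subunit had a median of -0.16, with 8 of 10 below 0. In the large subunit, 25 of 30 proteins with a bacterial counterpart (median -0.30) and 16 of 19 mitochondria-specific proteins (median -0.27) were below 0. With the length trend taken out these 2 medians were 0.012 and -0.076, and that of the mitochondria-specific small-subunit proteins was -0.099. The median of all tested genes was then 0.096. Below it were 13 of 16, 6 of 10, 22 of 30 and 13 of 19 proteins, with the groups in the order given above. Without tamoxifen 1 to 3 and with no trend taken out, the order of the group medians changed, with the mitochondria-specific proteins of the large subunit lowest at -0.54 and the small-subunit proteins with a bacterial counterpart at -0.42. These counts place Mrps30 and Mrps18a in the large subunit, where they sit despite their names, and leave out Mrps36. By name alone, 40 of 47 Mrpl genes (median -0.29) and 25 of 29 Mrps genes (median -0.32) were below 0. Whether the role groups differ from one another was not tested.

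**Figure D2:**
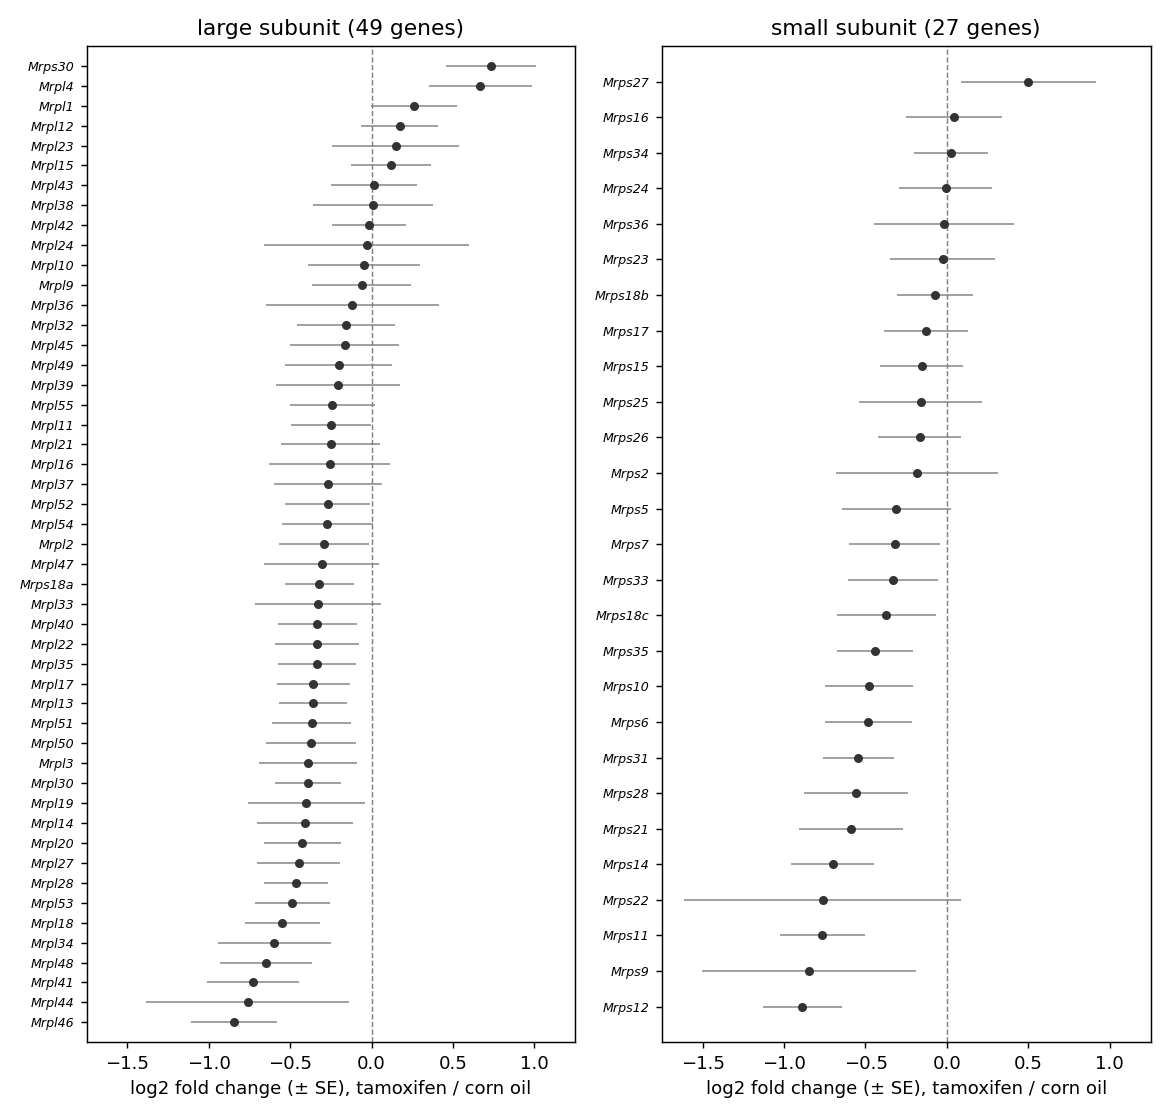
Log2 fold change, tamoxifen over corn oil, of all 76 members with its standard error (horizontal axis), ordered by value within the large subunit (left) and the small subunit (right). Points left of the dashed line are lower with tamoxifen. Most lie there, from -0.89 for Mrps12 to 0.73 for Mrps30, and none passed the FDR in edgeR.

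Mrps12 (uS12m) forms part of the decoding site, where codon and anticodon are matched. It lies on chromosome 7, 28739641 to 28741820, minus strand (GRCm38), head to head with Sars2, which encodes the mitochondrial seryl-tRNA synthetase, and the annotated starts are 172 bases apart. The stretch between the RefSeq starts of the pair is shown because Mrps12 had the smallest p of all members. It is chr7:28741822-28741967 of GRCm38.p6, read 5′ to 3′ on the minus strand, with 3 matches to the letters CCAAT in capitals.
Sars2 to Mrps12: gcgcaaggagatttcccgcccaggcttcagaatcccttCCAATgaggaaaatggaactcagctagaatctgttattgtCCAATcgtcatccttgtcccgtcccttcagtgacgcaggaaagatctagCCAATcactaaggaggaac

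Mrps12 stood at 147, 103, 125 and 125 normalised CPM in the corn oil libraries and at 46.4 to 97.1 with a median of 67.4 in the tamoxifen libraries. Every corn oil library was above every tamoxifen library. The means were 125 ± 17.8 (SD, n = 4) in the corn oil group against 67.6 ± 17.3 (SD, n = 6) in the tamoxifen group, a log2 fold change of -0.89 (standard error 0.24, adjusted p = 0.229 by edgeR). Its neighbour Sars2 stood at 19.3, 12.2, 17.6 and 26.7 with corn oil and 0 to 13.3 with a median of 8.49 with tamoxifen. Sars2 had no count in tamoxifen 6, and its log2 fold change was -1.24 (standard error 0.83, adjusted p = 0.701 by edgeR).

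Mrpl46, a mitochondria-specific protein of the large subunit, and Mrps11 (uS11m), a protein of the small-subunit platform, also form a head-to-head pair. Mrpl46 lies on chromosome 7, 78775236 to 78783531, minus strand, and Mrps11 on chromosome 7, 78783119 to 78792989, plus strand. By these GENCODE bounds their ends overlap by 412 bases on opposite strands. By their RefSeq starts they do not overlap, and 41 bases lie between them. The library kits do not mark strand, and reads from any shared bases cannot be told apart. Mrpl46 stood at 100.3, 129.9, 72.7 and 127 with corn oil and 47.6 to 80.1 with a median of 52.7 with tamoxifen. Mrps11 stood at 127, 66.3, 77.0 and 88.2 with corn oil and 43.7 to 73.5 with a median of 49.1 with tamoxifen. Both overlapped between the groups. For Mrpl46 corn oil 3 was within the tamoxifen range, and for Mrps11 corn oil 2 was, while tamoxifen 6 was the highest of the tamoxifen libraries for Mrps11. The log2 fold changes were -0.84 (standard error 0.26, adjusted p = 0.310 by edgeR) for Mrpl46 and -0.77 (standard error 0.26, adjusted p = 0.332 by edgeR) for Mrps11.

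Mrps14 (uS14m) sits in the head of the small subunit. It lies on chromosome 1, 160195215 to 160202170, plus strand. The 250 bases before its RefSeq start, chr1:160194965-160195214 of GRCm38.p6, are shown to set beside the shorter stretch of Mrps12. None of the 4 motifs searched, which are spelled out with their shares further on, was found in them. The 300-base window of Mrps12 held an ETS core and a YY1 site as well as CCAAT. Of these, the Mrps12 stretch shown above holds only the CCAAT matches.
Mrps14: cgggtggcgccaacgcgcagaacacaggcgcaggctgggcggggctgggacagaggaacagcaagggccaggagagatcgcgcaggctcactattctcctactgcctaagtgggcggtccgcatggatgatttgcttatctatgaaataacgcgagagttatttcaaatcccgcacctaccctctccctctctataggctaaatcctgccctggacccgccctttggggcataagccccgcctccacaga

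Mrps14 stood at 159.9, 175, 306 and 207 with corn oil and 102 to 174 with a median of 122 with tamoxifen. Corn oil 3 was the highest of all libraries, and the groups overlapped. The log2 fold change was -0.70 (standard error 0.25, adjusted p = 0.367 by edgeR), and -0.47 without corn oil 3. Mrps31, a mitochondria-specific protein of the small subunit on chromosome 8, 22411361 to 22429665, plus strand, stood at 70.9, 93.0, 91.6 and 87.9 with corn oil and 48.0 to 67.0 with a median of 62.0 with tamoxifen, with no overlap. Its log2 fold change was -0.54 (standard error 0.22, adjusted p = 0.435 by edgeR).

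The remaining small-subunit proteins described by their role, with Mrps18a of the large subunit, had log2 fold changes from -0.76 to 0.045. The S18 family has 3 mitochondrial copies, of which each mitoribosome holds Mrps18b and Mrps18c in the small subunit and Mrps18a in the large subunit. Their log2 fold changes were -0.32 (Mrps18a), -0.075 (Mrps18b) and -0.37 (Mrps18c), with adjusted p of 0.697, 0.967 and 0.770 in edgeR. When the length trend was taken out they were at 0.024, 0.23 and 0.028, where the median of all tested genes was 0.096. Mrps18a and Mrps18c were then above 0 but below that median. Mrps18c showed a wide spread, 104, 232, 158 and 176 with corn oil and 87.5 to 204 with a median of 119.8 with tamoxifen, and Mrps18b a narrow one, 61.1, 71.5, 68.0 and 69.1 with corn oil and 43.0 to 72.8 with a median of 68.5 with tamoxifen. Mrps16, Mrps22 and Mrps34 are mutated in inherited disorders of the respiratory chain. Mrps16 stood at 80.5, 49.5, 118 and 95.3 with corn oil and 54.2 to 129 with a median of 85.3 with tamoxifen, a log2 fold change of 0.045 (standard error 0.30, adjusted p = 0.985 by edgeR). Mrps34 stood at 158, 143, 93.0 and 118 with corn oil and 105 to 158 with a median of 124 with tamoxifen, a log2 fold change of 0.026 (standard error 0.23, adjusted p = 0.987 by edgeR). The groups overlapped for Mrps16 and Mrps34, and for both genes the sign changed when single libraries were left out. Mrps22 stood at 25.5, 27.7, 31.8 and 38.6 with corn oil and 24.9, 23.7, 21.1, 5.28, 34.1 and 0 in tamoxifen 1 to 6. It had no count in tamoxifen 6, where a count of 0 allows up to 3 counts or 0.490 CPM, and its log2 fold change was -0.76 (standard error 0.85, adjusted p = 0.854 by edgeR). Mrps36, which is also a component of the 2-oxoglutarate dehydrogenase complex, stood at 16.0, 13.3, 24.9 and 14.3 with corn oil and 10.5 to 26.5 with a median of 14.5 with tamoxifen, a log2 fold change of -0.018 (standard error 0.43, adjusted p = 0.998 by edgeR).

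In the large subunit, the members of smallest p came from several structural regions. Mrpl41 is a mitochondria-specific protein on chromosome 2, 24974117 to 24975098, minus strand. It stood at 118, 138, 116 and 125 with corn oil and 44.9 to 119 with a median of 72.8 with tamoxifen, where tamoxifen 4 alone reached the corn oil range, and its log2 fold change was -0.73 (standard error 0.28, adjusted p = 0.402 by edgeR). Mrpl18 (uL18m), a protein of the central protuberance on chromosome 17, 12911349 to 12916345, minus strand, stood at 144, 157, 156 and 151 with corn oil, a narrow range, and 65.7 to 149.6 with a median of 102 with tamoxifen. Tamoxifen 1 lay among the corn oil libraries and the other 5 below them, and the log2 fold change was -0.55 (standard error 0.23, adjusted p = 0.462 by edgeR). Mrpl18 shares exon sequence with Tcp1 on the other strand. Mrpl28 (bL28m) lies on chromosome 17, 26123500 to 26126613, plus strand. It was at 243, 271, 261 and 221 with corn oil and 135 to 220.1 with a median of 182 with tamoxifen, with no overlap and a log2 fold change of -0.46 (standard error 0.20, adjusted p = 0.471 by edgeR).

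A further 3 large-subunit genes had groups that did not overlap. Mrpl48, also of the central protuberance, on chromosome 7, 100545751 to 100608301, minus strand, stood at 46.1, 37.5, 39.0 and 45.0 with corn oil and 20.1 to 35.7 with a median of 25.4 with tamoxifen. Its log2 fold change was -0.65 (standard error 0.28, adjusted p = 0.481 by edgeR), and it was the only member still lower at an unadjusted p under 0.05 once the length trend was taken out (-0.65). Mrpl48 shares exon sequence with Rab6a on the other strand, and the annotation names a pseudogene of it. Mrpl30 (uL30m), on chromosome 1, 37890477 to 37898535, plus strand, had the tightest corn oil values of those described, 141, 151, 150.2 and 149, against 87.2 to 140.3 with a median of 115 with tamoxifen. Tamoxifen 1 lay just under the lowest corn oil library, and the log2 fold change was -0.39 (standard error 0.20, adjusted p = 0.577 by edgeR). Mrpl44, which keeps a ribonuclease III-like fold, stood at 71.4, 59.9, 55.3 and 65.9 with corn oil and at 37.9, 46.6, 52.4, 34.7, 50.7 and 0.980 in tamoxifen 1 to 6. The value in tamoxifen 6 rests on 6 counts. The log2 fold change was -0.76 (standard error 0.62, adjusted p = 0.772 by edgeR), and -0.51 without that library.

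The stalk, which recruits translation factors, is built from Mrpl10, Mrpl11 and Mrpl12. Their log2 fold changes were -0.047 (standard error 0.34, adjusted p = 0.986 by edgeR), -0.25 (standard error 0.25, adjusted p = 0.822 by edgeR) and 0.17 (standard error 0.24, adjusted p = 0.893 by edgeR), a median of -0.047. The stalk median was 0.075 with the length trend taken out and 0.034 with the GC trend taken out, but the median of all tested genes was then 0.096. Relative to all tested genes it was -0.036 in the main fit, -0.021 with the length trend and -0.062 with the GC trend taken out. Without tamoxifen 1 to 3 the stalk median was -0.22, with all 3 below 0. Mrpl12, which has also been reported to bind the mitochondrial RNA polymerase, stood at 154, 156, 133 and 237 with corn oil and 144 to 243 with a median of 202 with tamoxifen. Mrpl10 stood at 79.1, 57.5, 66.7 and 113 with corn oil and 26.6 to 95.9 with a median of 80.7 with tamoxifen, and tamoxifen 6 was far below the rest. Mrpl11 stood at 83.4, 77.7, 120.3 and 103 with corn oil and 60.1 to 111 with a median of 76.7 with tamoxifen. All 3 stalk genes overlapped between the groups.

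Mrpl1, Mrpl2 and Mrpl3 belong to the core that the large subunit shares with bacteria. Mrpl1 (uL1m), which sits where spent tRNA leaves, stood at 39.4, 41.5, 49.3 and 45.2 with corn oil and 39.2 to 72.1 with a median of 51.0 with tamoxifen, a log2 fold change of 0.26 (standard error 0.26, adjusted p = 0.831 by edgeR). Mrpl2 (uL2m), near the catalytic centre, stood at 144, 208, 142 and 108 with corn oil and 71.6 to 190.3 with a median of 121 with tamoxifen, a log2 fold change of -0.29 (standard error 0.28, adjusted p = 0.815 by edgeR). With the length trend taken out Mrpl2 was at 0.030, where the median of all tested genes was 0.096. Mrpl3 (uL3m) stood at 35.8, 51.1, 38.4 and 57.3 with corn oil and 23.2 to 42.9 with a median of 38.2 with tamoxifen, a log2 fold change of -0.39 (standard error 0.30, adjusted p = 0.749 by edgeR). The groups overlapped for all 3 of these genes. Mrpl45, which holds the ribosome at the inner membrane, stood at 114, 80.2, 75.7 and 158 with corn oil and 35.7 to 124 with a median of 104 with tamoxifen, a log2 fold change of -0.17 (standard error 0.33, adjusted p = 0.936 by edgeR), and its lowest value was that of tamoxifen 4.

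Only Mrps30 was higher with tamoxifen at an unadjusted p under 0.05. It belongs to the large subunit, where it is called mL65, and lies on chromosome 13, 118378381 to 118387252, minus strand. It stood at 52.5, 129, 69.7 and 72.8 with corn oil and 94.7 to 161 with a median of 136 with tamoxifen. Corn oil 2 lay among the tamoxifen libraries, and the other 3 corn oil libraries lay below all of them. The means were 81.1 ± 33.4 (SD, n = 4) in the corn oil group against 135 ± 23.0 (SD, n = 6) in the tamoxifen group, and the log2 fold change was 0.73 (standard error 0.28, adjusted p = 0.390 by edgeR), or 1.05 without corn oil 2, 0.57 without corn oil 1, 0.68 without corn oil 4 and 0.56 without tamoxifen 1 to 3. With corn oil 1, corn oil 4 or tamoxifen 1 to 3 left out, 0 members were higher at an unadjusted p under 0.05. An antisense transcript, B430218F22Rik, shares exon sequence with it. Mrpl4 (uL4m), which lines the exit tunnel and lies on chromosome 9, 21002738 to 21008839, plus strand, was also higher in the mean. It stood at 28.3, 78.2, 65.7 and 32.7 with corn oil and 69.8 to 95.9 with a median of 77.8 with tamoxifen. The 6 tamoxifen values were close together, whereas corn oil 1 and 4 lay far below them, corn oil 3 just below and corn oil 2 among them, and the log2 fold change was 0.67 (standard error 0.32, adjusted p = 0.527 by edgeR). With the length trend taken out, Mrps30 (0.76) and Mrpl4 (0.95) were the 2 members higher at an unadjusted p under 0.05.

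**Figure D3:**
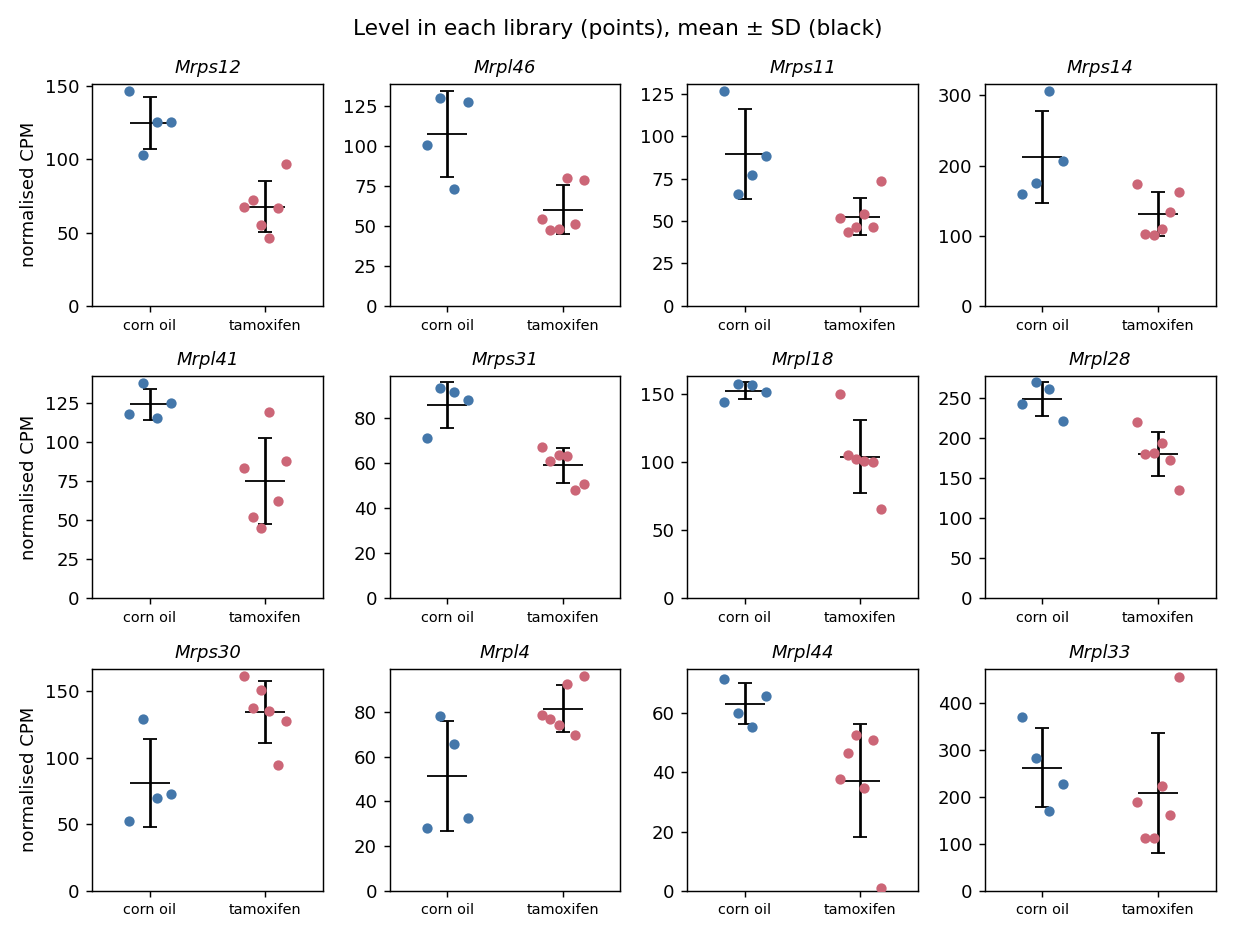
Normalised CPM (vertical axis, from 0) of 12 members in each library (points), with the mean ± SD in black, for corn oil (n = 4, blue) and tamoxifen (n = 6, red). The groups do not overlap for Mrps12, Mrps31, Mrpl28 and Mrpl44, and in Mrps30 and Mrpl4 the tamoxifen mean is the higher one.

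Levels were compared between genes per length only, as normalised CPM per kilobase of the principal transcript, averaged over all 10 libraries. The members spanned from 7.65 to 482, with a median of 54.1, although mitoribosomes hold most of these proteins in equal number. The highest were Mrpl33 (482), Mrpl52 (329.6), Mrpl42 (252) and Mrps18c (227), and the lowest were Mrpl48 (7.65), Mrpl3 (9.86), Mrps5 (9.99) and Mrps25 (10.3). All 4 of the highest have principal transcripts of 418 to 666 bases, and all 4 of the lowest have ones of 3972 to 6073 bases, so these ends of the order differ in annotated length, which may hold untranslated sequence that was not covered. Over libraries, Mrpl33 ran from 234 to 952 per kilobase and Mrpl52 from 210.0 to 441, so these neighbours overlapped. Mrpl33 (bL33m) stood at 369.6, 282, 170.1 and 229 normalised CPM with corn oil and 189, 114, 112, 223, 161 and 455 in tamoxifen 1 to 6. Tamoxifen 6 was the highest of all libraries for Mrpl33, and the log2 fold change was -0.33 (standard error 0.39, adjusted p = 0.864 by edgeR), or -0.72 without tamoxifen 6 and 0.098 without tamoxifen 1 to 3. The log2 fold changes were -0.27 (standard error 0.26, adjusted p = 0.817 by edgeR) for Mrpl52, -0.017 (standard error 0.23, adjusted p = 0.993 by edgeR) for Mrpl42, -0.31 (standard error 0.33, adjusted p = 0.844 by edgeR) for Mrps5 and -0.16 (standard error 0.38, adjusted p = 0.948 by edgeR) for Mrps25; with the length trend taken out, Mrpl52 and Mrpl42 were at 0.24 and 0.39. For 5 members a library held fewer than 30 reads, always tamoxifen 6 (Mrps22 0, Mrps9 3, Mrpl44 6, Mrpl24 22 and Mrps2 24), and every other value rests on at least 68 reads.

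Members did not all vary together over the libraries. Each gene's log2 CPM was set against the mean of the other 75 over the 10 libraries, as a description, since the libraries share depth and composition and 3 of them are near alike. Pearson r was above 0 for 66 members, above 0.5 for 37 and above 0.8 for 8. It was highest for Mrps10 (0.936), Mrpl34 (0.932) and Mrpl18 (0.926), and lowest for Mrpl4 (-0.605), Mrps30 (-0.474) and Mrps34 (-0.433). Mrps10 (uS10m), of the small-subunit head, stood at 71.9, 76.5, 72.8 and 106 with corn oil and 39.7 to 90.2 with a median of 53.8 with tamoxifen, a log2 fold change of -0.48 (standard error 0.27, adjusted p = 0.627 by edgeR). Mrpl34 (bL34m) stood at 139, 109, 165 and 222 with corn oil and 53.2 to 180.3 with a median of 109 with tamoxifen, with tamoxifen 4 and 6 lowest, and its log2 fold change was -0.60 (standard error 0.35, adjusted p = 0.642 by edgeR). The groups overlapped for both Mrps10 and Mrpl34.

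Most members have short transcripts, and tested genes with short transcripts had a median log2 fold change below 0 as a class. The median principal transcript was 1284 bases for the members and 2923 for all tested genes, and 49 of the 76 members fell in the shortest of 5 equal-sized length classes of tested genes (up to 1623 bases). In that class the median log2 fold change of all genes was -0.22 with 64.8% below 0, and that of its 49 members was -0.33 with 43 below 0. In the other 4 classes, from short to long, the medians of all genes were -0.031, 0.055, 0.11 and 0.043, and those of the 8, 6, 9 and 4 members in them were -0.19, -0.20, -0.33 and -0.26. The median deviation of genes in the shortest class from each gene's mean was 0.17 to 0.31 (log2) in the corn oil libraries and -0.19 to 0.15 in the tamoxifen libraries, without overlap.

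A fit in which each library's trend of counts on transcript length was taken out moved the median of all tested genes by 0.11, to 0.096. In this fit the members' median was -0.079, or 0.17 below that of all genes, where it was 0.30 below without the correction. Below 0 were 44 of 76 members (57.9%) against 43.7% of all tested genes, and 54 of 76 were below the median of all genes. At an unadjusted p under 0.05, 1 member was lower (Mrpl48; 3.49% of all tested genes) and 2 were higher (5.43% of all tested genes), and none passed the FDR (0.031% of all tested genes). A correction for GC content in place of length, added after seeing the data, left 58 members below 0, against 44.1% of all tested genes. The members' median was then -0.18, or 0.27 below that of all genes.

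**Figure D4:**
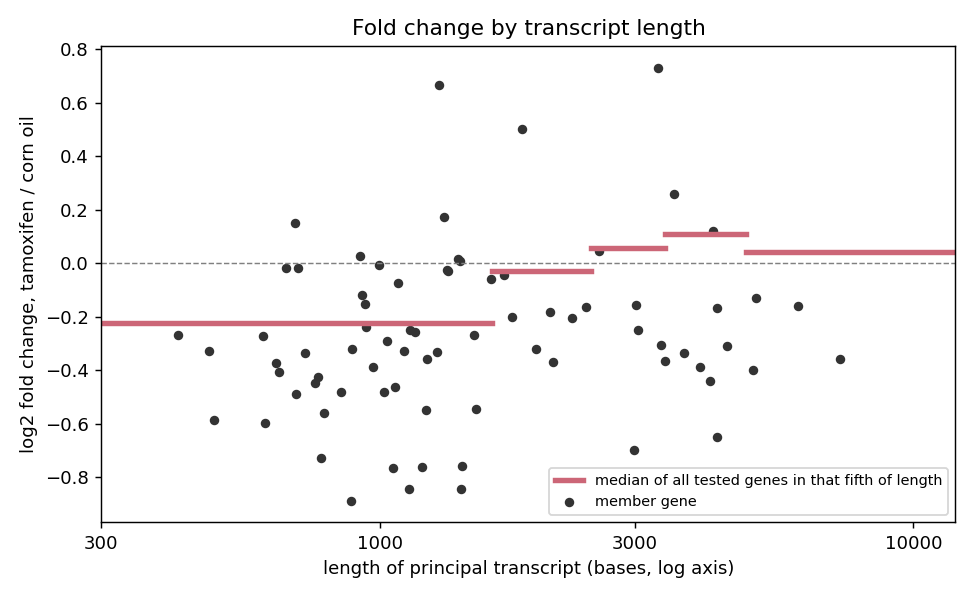
Log2 fold change, tamoxifen over corn oil (vertical axis), of each member (black points) against the length of its principal transcript in bases (horizontal log axis). Red lines give the median of all tested genes in each of 5 length classes, from -0.22 in the shortest to 0.11, and the medians of the members in the 5 classes run from -0.33 to -0.19.

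Genes of 2 other machines built from small proteins were set beside the members. Of 80 tested cytosolic ribosomal proteins, which translate nuclear-encoded messages, 35 were below 0 with a median of 0.041, although their median transcript (886.5 bases) was shorter than that of the members. With the length trend taken out their median was 0.35, and without tamoxifen 1 to 3 it was -0.081 with 46 below 0. Of 35 subunits of respiratory complex I, some of whose partners the mitoribosome makes, 32 were below 0 with a median of -0.43 and 12 were lower at an unadjusted p under 0.05. With the length trend taken out the complex I median was -0.086, beside 0.096 for all tested genes. Without tamoxifen 1 to 3 it was -0.36, with 29 below 0 and 2 lower at an unadjusted p under 0.05. None of these genes passed the FDR in edgeR, and the differences between these lists and the members were not tested.

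Nuclear genes for mitochondrial proteins often start head to head with another gene. This held for 25 of the 76 members (32.9%), against 1780 of 12500 tested protein-coding genes (14.2%), counting starts on opposite strands up to 1000 bases apart or overlapping by up to 500. The partners included Ndufs6 (for Mrpl36), Psma2 (for Mrpl32), Fau (for Mrpl49) and Mitd1 (for Mrpl30). Some tested partners had a log2 fold change of the same sign as the member, and others had the opposite sign. Whether partners changed together was not tested. Windows of 300 bases from RefSeq (250 before to 50 after the start, GRCm38.p6) were found for 67 members and for 12219 genes of the table, and 4 motifs were searched on both strands. The core of the ETS factor site, CCGGAAG, was in 24 of 67 member windows (35.8%) and in 17.7% of all windows. AAGATGGC, the core of the YY1 site, was in 12 (17.9%) and 4.66%. The core of the NRF1 site, GCGCANGCG, was in 15 (22.4%) and 13.4%, and CCAAT was in 27 (40.3%) and 42.5%. A match describes letters only. Mrpl52, one of the most abundant members per length, is shown as an example of an ETS core, which reads CTTCCGG on this strand (capitals). These are the 250 bases before its RefSeq start, chr14:54426659-54426908 of GRCm38.p6, plus strand.
Mrpl52: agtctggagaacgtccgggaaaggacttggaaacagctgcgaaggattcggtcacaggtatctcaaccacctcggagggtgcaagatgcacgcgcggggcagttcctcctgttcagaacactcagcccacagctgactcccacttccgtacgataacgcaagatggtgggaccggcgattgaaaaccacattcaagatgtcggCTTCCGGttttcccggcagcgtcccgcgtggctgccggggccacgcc

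Other genes of mitochondrial gene expression were listed by function, and none of them passed the FDR in edgeR over all 10 libraries. With tamoxifen 4 and 6 left out, edgeR called 77 of 12790 tested genes. Among these were 3 of the genes named below, all higher with tamoxifen: Hspa9 (adjusted p = 0.0404), Lonp1 (adjusted p = 0.0415) and Myc (adjusted p = 0.0417). The tamoxifen libraries of that fit were tamoxifen 5 and the near-alike tamoxifen 1 to 3. Its adjusted p would be too small if tamoxifen 1 to 3 came from the same animal. Values of these genes without tamoxifen 1 to 3 are given below. Limma voom over all libraries called Hspa9, Lonp1 and Myc higher and Ppargc1a and Slirp lower. A further 7 tested mitoribosomal proteins carry other symbols (among them Mrp63 for mL63 and Ict1, the peptide-releasing mL62). Of these, 4 were below 0 with a median of -0.32. Gadd45gip1 (mL64) stood at 105, 63.2, 54.4 and 129 with corn oil and 16.8 to 59.0 with a median of 49.5 with tamoxifen, a log2 fold change of -0.99 (standard error 0.37, adjusted p = 0.375 by edgeR), and Ptcd3 (mS39) had a log2 fold change of 1.12 (standard error 0.63, adjusted p = 0.625 by edgeR). Of 11 translation factors 3 were below 0 (median 0.082), with Mtif2, which brings the initiator tRNA, at -0.68 (standard error 0.43, adjusted p = 0.671 by edgeR) and Guf1, an elongation factor homologue, at 0.90 (standard error 0.59, adjusted p = 0.690 by edgeR). Of 25 assembly and ribosomal RNA modification factors 10 were below 0 (median 0.065), and 4 were higher at an unadjusted p under 0.05. Of these, Rbfa, which matures the small subunit, stood at 67.3, 57.2, 47.8 and 41.0 with corn oil and 80.3 to 143 with a median of 84.4 with tamoxifen, without overlap, a log2 fold change of 0.81 (standard error 0.26, adjusted p = 0.318 by edgeR). Dhx30, a helicase of large-subunit assembly, had a log2 fold change of 0.99 (standard error 0.38, adjusted p = 0.393 by edgeR).

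Of 12 genes of mitochondrial transcription and RNA processing 2 were below 0 (median 0.60). Lrpprc, which stabilises mitochondrial messenger RNA, had a log2 fold change of 1.02 (standard error 0.55, adjusted p = 0.596 by edgeR), and Slirp, its binding partner, -0.77 (standard error 0.27, adjusted p = 0.356 by edgeR). Of 14 genes of protein import and folding 6 were below 0 (median 0.075). Hspa9, the matrix chaperone that pulls proteins in, stood at 244, 148, 189 and 194 normalised CPM with corn oil and 259.6 to 671 with a median of 539 with tamoxifen. No tamoxifen library of Hspa9 was as low as any corn oil library. Its log2 fold change was 1.38 (standard error 0.30, adjusted p = 0.148 by edgeR), DESeq2 gave an adjusted p of 0.00220, and without tamoxifen 1 to 3 the log2 fold change was 0.89. Lonp1, the matrix protease, had a log2 fold change of 0.99 (standard error 0.33, adjusted p = 0.327 by edgeR), or 0.44 without tamoxifen 1 to 3. The medians of these lists were lower without tamoxifen 1 to 3. With these libraries left out, 8 of 11 translation factors (median -0.52), 16 of 25 assembly factors (-0.35), 7 of 12 transcription and processing genes (-0.012) and 8 of 14 import genes (-0.14) were below 0, beside 65 of 76 members (-0.37).

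Among 9 regulators of mitochondrial gene expression 3 were below 0 (median 0.28, and -0.33 with 6 below 0 without tamoxifen 1 to 3). Myc, a transcription factor that drives ribosome production, stood at 181, 181, 160.2 and 314 with corn oil and 940.4, 892, 1042, 112, 386 and 124 in tamoxifen 1 to 6. Its log2 fold change was 1.48 (standard error 0.61, adjusted p = 0.450 by edgeR), and -0.010 without tamoxifen 1 to 3. Ppargc1a, a coactivator of mitochondrial biogenesis, stood at 18.5, 3.38, 9.67 and 3.20 with corn oil and 0 to 2.09 with a median of 0.893 with tamoxifen. Its groups did not overlap, and the log2 fold change was -3.03 (standard error 1.06, adjusted p = 0.350 by edgeR). Cell cycle genes were lower beside the members: 13 of 15 were below 0 with a median of -1.40, 10 of them at an unadjusted p under 0.05, and their mean log2 CPM was 4.11 to 6.62 with corn oil and 3.73 to 4.99 with tamoxifen. None of the 15 passed the FDR in edgeR, and without tamoxifen 1 to 3, 14 were below 0 with a median of -1.13 and 1 was lower at an unadjusted p under 0.05. Of 7 tested fibroblast markers none was below 0, with a median of 1.67 and 2 higher at an unadjusted p under 0.05, and without tamoxifen 1 to 3 the median was 2.13 with 4 higher. The part of cell cycle and of other cell types in the members' values was not tested.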

How the data were processed

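RNA of 10 samples was extracted (Qiagen micro kit), turned into cDNA with SMART-seq v4 and sequenced from Nextera XT libraries, per the labels' protocols; strand is lost in these kits. The file deposited by the authors is 1 table of raw read counts with a row per symbol. The submitters' processing notes name the mm10 build and the tools STAR 2.5.2b, featureCounts 1.5.0-p3 and bcl2fastq 2.17. Which annotation and strand setting were used, and how multi-mapping reads were counted, is not given in the sources used here.

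For the tests, raw counts went into edgeR 4.0.16 (R 4.3.3), with filterByExpr, TMM scaling and a quasi-likelihood F test with no covariates. Adjusted p-values are Benjamini-Hochberg over all 13006 tested genes, read at an FDR of 0.05. Standard errors were taken as the absolute log2 fold change over the square root of F. Normalised CPM are TMM-scaled, and log2 CPM used a prior count of 2. DESeq2 1.42.0, limma 3.58.1 (voom), other scaling, filters and sample sets, and trends on length or GC (lowess, span 0.3) were alternatives. The edgeR fit was tested on simulated data. Positions, principal transcript lengths and GC came from GENCODE M21 (GRCm38), in which 93.8% of symbols were found (99.2% of genes had a length with RefSeq synonyms). It has 32 members that share exon sequence with another gene. Mrpl57 and Mrpl58 are listed in the table as Mrp63 and Ict1 and are outside the rule. Promoter windows came from RefSeq (GRCm38.p6).

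The members and lists were chosen with earlier results of these data known. Named were the members past the FDR or, up to 8 per direction, those of smallest unadjusted p under 0.05, members whose groups do not overlap, the 4 highest and 4 lowest per kilobase, members of a listed role, the 3 highest and 3 lowest in correlation with the other members, and the 2 of smallest p in each pathway list. Replicate numbers follow the accession order and pair no samples. Library depth is given with the results.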

Additional observations from a re-analysis of the deposited data

Results flagged for a closer look

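In 98 comparisons of a group's highest or lowest library with the rest (Dixon's test), 10 values stood apart; chance flags about 1 in 20 groups. In tamoxifen 6, Mrps11 (73.5 normalised CPM, against 43.7 to 54.4 in the other tamoxifen libraries) and Mrpl33 (455, against 112 to 223) were high. In the same library Mrpl44 (0.980, against 34.7 to 52.4) and Mrpl10 (26.6, against 79.6 to 95.9) were low. In tamoxifen 4, Mrpl45 was low (35.7, against 97.6 to 124), while Rbfa (143, against 80.3 to 86.6) and Dhx30 (83.4, against 34.0 to 44.9) were high. In corn oil 4, Mrps10 (106, against 71.9 to 76.5) and Myc (314, against 160.2 to 181) were high. In corn oil 3 the median deviation of genes with the shortest transcripts (up to 1623 bases) was 0.311 on the log2 scale, against 0.173 to 0.196 in the other corn oil libraries.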

How the results depend on the processing

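The median log2 fold change of the members stayed below 0 in every alternative run. It was -0.079 for all members and -0.066 for the Mrpl genes with the length trend taken out, where that of all tested genes was 0.096. Otherwise it lay within 1 SD (0.20, over libraries) of the reported value. No member passed the FDR of 0.05 in any edgeR or DESeq2 fit; limma voom called 9. At an FDR of 0.1 the edgeR fit over all libraries called none. Among the members named, DESeq2 had Mrps12 under it (0.0561). Without tamoxifen 4 and 6, edgeR had Mrps12 (0.0668), Mrpl46 (0.0668), Mrpl41 (0.0754) and Mrps11 (0.0975) under it. The tamoxifen libraries of that fit were tamoxifen 5 and the near-alike tamoxifen 1 to 3. These adjusted p would be too small if tamoxifen 1 to 3 came from the same animal. That fit called 77 of 12790 tested genes at an FDR of 0.05, where the edgeR fit over all libraries called 5 of 13006. Shares of all tested genes at an FDR of 0.1 are not given here. The count of members lower at an unadjusted p under 0.05 was 23 with limma voom (15.6% of all tested genes in that fit), 1 with the length trend (3.49%) and 1 with the GC trend taken out (3.46%), 5 with tamoxifen 1 to 3 summed (2.67%), 4 with them left out (2.23%) and 14 with tamoxifen 4 and 6 left out (10.1%). The count of members higher was 2 with RLE factors, 2 with DESeq2, 3 with limma voom, 2 with the length trend and 2 with the GC trend taken out, 0 with tamoxifen 1 to 3 summed and 0 with them left out. Of all tested genes, 4.43% were higher in the main fit and 5.43% with the length trend taken out. For the other fits, and for those that leave out 1 library, the share of all tested genes that were higher is not given here. Leaving out 1 library in turn gave medians of -0.37 to -0.23 (Mrpl -0.37 to -0.24, Mrps -0.40 to -0.20), 58 to 68 members below 0, 0 to 0 past the FDR, 4 to 15 lower and 0 to 2 higher at an unadjusted p under 0.05. Of all tested genes, 48.7% to 51.5% were below 0 in these fits. The lower count was 4 without corn oil 3, tamoxifen 2 or tamoxifen 3 (4.55%, 3.49% and 3.41% of all tested genes), 5 without tamoxifen 5 (5.30%), 14 without tamoxifen 1 (4.15%) and 15 without tamoxifen 6 (7.07%). The cause was not tested.

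Signs turned as follows, also for genes whose reported value was not near 0, among them Myc (1.48), Lrpprc (1.02), Mrps18c (-0.37), Mrpl33 (-0.33), Mrps18a (-0.32) and Mrpl2 (-0.29). With limma voom, Mrps25 was at 0.15, Mrpl10 at 0.12, Mrps18b at 0.037 and Mrps34 at -0.15; with detected genes as a covariate, Mrps34 was at -0.028. With the length trend taken out, Mrpl33 was at 0.045, Mrpl52 at 0.24, Mrpl42 at 0.39, Mrps18c at 0.028, Mrpl10 at 0.075, Mrpl2 at 0.030, Mrps18a at 0.024, Mrps18b at 0.23 and Mrps36 at 0.38. With the GC trend taken out, Mrpl42 was at 0.059, Mrpl10 at 0.034, Mrps18b at 0.042 and Mrps36 at 0.12. The median of all tested genes was 0.096 with either trend taken out, against -0.010 in the main fit. Some of these genes were thus above 0 but still below that median. With tamoxifen 1 to 3 summed, Mrps16 was at -0.098. With them left out, Mrpl33 was at 0.098, Mrpl12 at -0.036, Mrps16 at -0.24, Mrps36 at 0.0040, Lrpprc at -0.021 and Myc at -0.010. With tamoxifen 4 and 6 left out, Mrpl42 was at 0.092, Mrps25 at 0.14, Mrpl10 at 0.090, Mrpl45 at 0.0055 and Mrps34 at -0.13. Over single libraries left out, the values ran from -0.17 to 0.18 for Mrpl10, -0.30 to 0.083 for Mrpl45, -0.14 to 0.24 for Mrps16, -0.12 to 0.016 for Mrps18b, -0.097 to 0.14 for Mrps34, -0.19 to 0.22 for Mrps36, -0.12 to 0.081 for Mrpl42 and -0.31 to 0.25 for Mrps25. No paired analysis was possible because the labels give no shared replicate numbers.

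The depth of tamoxifen 6 limits Mrps22, Mrps9, Mrpl44, Mrpl24 and Mrps2. Tamoxifen and the deletion it triggers cannot be told apart, and the labels do not say which libraries share an animal.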
